A study of Mus musculus with 2 samples.

Results

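Heme synthesis in common myeloid progenitors was described from 9 genes: Slc25a38, Alas1, Alas2, Alad, Uros, Urod, Cpox, Ppox and Fech. They were found by matching these symbols to Ensembl gene IDs. All 9 were present among the 43346 Ensembl genes of the deposited tables. These progenitors are marrow cells from which both the red cell and megakaryocyte branch and the granulocyte and monocyte branch arise. The samples form 1 group, primary cells of male adult C57BL/6J mice of 5 to 6 weeks, with no treatment or allele in the labels. It holds 2 total RNA libraries, numbered as biological replicates 1 and 2 but with a shared donor label, so the spread between them may be partly technical. How many animals were pooled and which surface markers were sorted are not given in the sources used here. RNA of many cells was measured together, so fewer cells of a type and less RNA per cell cannot be told apart.

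Heme is an iron-bearing ring made in mitochondria and cytosol in turn. Aminolevulinate synthase joins glycine and succinyl-CoA in the mitochondrion, cytosolic enzymes build the ring precursor, and mitochondrial enzymes oxidise it and insert iron. Every cell uses the synthase encoded by Alas1, whose gene is repressed by heme, while maturing red cells rely on the one encoded by Alas2, which is switched on by the erythroid regulator GATA1 and held back by iron regulatory proteins when iron is scarce. In the mouse, Alad and Uros are also known to have separate housekeeping and erythroid start sites. The enzyme between the Alad and Uros steps was not analysed here.

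Replicate 1 held 28158803 expected counts, which are estimated reads per gene, and replicate 2 held 84041054, 2.98 times as many. The size ranges given for the libraries also differed, at 200 to 1000 in replicate 1 and 187 to 1606 in replicate 2. Their part in differences between the libraries was not tested. Levels are in TPM, a relative transcript level corrected for length, which allows genes to be compared. CPM, the expected count scaled by the library total, is not corrected for length and is used only between libraries. Of all TPM, nuclear protein-coding genes took 20.1% in replicate 1 and 21.5% in replicate 2, so a TPM value here is small for a coding gene. Of the progenitor markers, Cd34, Kit and Myb stood at 33.5 TPM or more in both libraries, and the lymphocyte genes Pax5, Cd3e and Cd8a had 0 counts in both.

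The start regions of the genes whose choice of gene or start site sets housekeeping apart from erythroid heme synthesis are printed first. Each is a RefSeq window on GRCm38.p6 of 250 bases before to 50 bases after an annotated start. Windows were found for 8 of the 9 genes, 11 windows in all, and Fech had no entry. The Alad window shown is that of its downstream start, at base 62519909, and also spans its upstream start, at base 62520063. The window of the upstream Alad start is not shown. Capitals mark the GATA motif (AGATAA or TGATAA), the CACCC motif bound by Krüppel-like factors, and, in the Alas1 window, the palindromic NRF1 motif of 10 letters that begins 3 bases after the CACCC match. Each was searched on both strands, and none overlaps another motif kind in these windows.
Alas1, chr9:106247681-106247980, minus strand: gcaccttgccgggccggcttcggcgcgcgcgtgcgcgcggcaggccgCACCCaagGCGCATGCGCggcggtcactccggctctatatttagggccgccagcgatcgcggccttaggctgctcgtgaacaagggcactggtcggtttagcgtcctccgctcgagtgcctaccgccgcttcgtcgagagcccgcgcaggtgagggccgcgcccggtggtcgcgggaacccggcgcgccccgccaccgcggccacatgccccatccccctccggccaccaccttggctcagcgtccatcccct
Alas2, chrX:150547167-150547466, plus strand: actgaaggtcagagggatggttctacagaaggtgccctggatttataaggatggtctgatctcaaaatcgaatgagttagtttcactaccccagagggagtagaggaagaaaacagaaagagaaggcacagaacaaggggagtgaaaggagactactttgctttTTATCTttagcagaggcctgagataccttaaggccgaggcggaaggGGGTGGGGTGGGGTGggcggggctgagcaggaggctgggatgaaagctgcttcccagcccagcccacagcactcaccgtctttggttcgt
Alad, chr4:62519860-62520159, minus strand: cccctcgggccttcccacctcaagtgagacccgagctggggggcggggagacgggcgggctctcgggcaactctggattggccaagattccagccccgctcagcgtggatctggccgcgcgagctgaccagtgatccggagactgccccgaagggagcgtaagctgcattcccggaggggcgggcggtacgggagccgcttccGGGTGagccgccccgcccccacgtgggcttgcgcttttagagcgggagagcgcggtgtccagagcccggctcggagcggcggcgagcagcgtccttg
Uros, upstream start, chr7:133709246-133709545, minus strand: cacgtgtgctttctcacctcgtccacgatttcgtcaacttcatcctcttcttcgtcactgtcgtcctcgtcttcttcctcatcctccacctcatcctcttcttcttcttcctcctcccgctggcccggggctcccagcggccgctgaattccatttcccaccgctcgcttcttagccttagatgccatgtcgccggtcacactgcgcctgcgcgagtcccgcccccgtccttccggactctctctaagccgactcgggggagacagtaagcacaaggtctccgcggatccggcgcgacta
Uros, downstream start, chr7:133702451-133702750, minus strand: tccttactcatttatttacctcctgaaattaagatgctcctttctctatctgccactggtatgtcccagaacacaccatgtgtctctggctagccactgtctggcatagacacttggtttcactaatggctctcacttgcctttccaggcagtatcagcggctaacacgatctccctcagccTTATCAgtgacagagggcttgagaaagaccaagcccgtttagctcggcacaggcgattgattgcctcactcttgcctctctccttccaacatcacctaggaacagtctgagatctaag

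The windows differed in base composition as well as in motifs. The Alas1 window shown held 44 CpG dinucleotides and 73.3% G and C, the most of the 11 windows, and the other Alas1 window held 27 CpG and 65.3% G and C. The Alas2 window held 6 CpG and 52.3% G and C. The downstream Uros window, with 5 CpG, was like that of Alas2, while the upstream Uros window held 28. The median over all 32851 windows was 7 CpG and 52.7% G and C. A GATA match lay 86 bases before the Alas2 start and 68 bases before the downstream Uros start, in both on the opposite strand; Cpox was the only other gene with one. This motif occurred in 18.6% of all windows, so a match is common. The CACCC motif occurred in 57.5% of all windows and in 7 of the 11 windows here, with 3 copies close before the Alas2 start. The NRF1 motif occurred in 0.971% of all windows and, among these genes, in the Alas1 windows alone. The same match lies 195 bases before the start shown, at base 106247730, and 29 bases after the other RefSeq start of Alas1, at base 106247954. A match describes letters in the window and is not a measured binding site.

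Slc25a38, on chromosome 9 from 120110374 to 120124504, encodes the carrier that brings glycine into mitochondria for the synthase. It had 644 and 1743 expected counts and stood at 6.51 TPM in replicate 1 and 9.13 TPM in replicate 2. The mean was 7.82 ± 1.85 TPM (SD, n = 2 here and below). Its level was the median of the 9 genes in each library.

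Alas1, on chromosome 9 from 106233455 to 106248654, carried nearly all of the synthase RNA. It had 1757 and 4585 expected counts and stood at 13.9 and 12.6 TPM in replicates 1 and 2, a mean of 13.3 ± 0.905 TPM. This level lay above that of 70.1% of the 9116 nuclear protein-coding genes at 1 TPM or more in both libraries. Alas2, on chromosome X from 150547375 to 150570638, had 11 and 19 expected counts, or 0.09 and 0.2 TPM. The deposited intervals of these levels were 0.0725 to 0.311 TPM and 0.133 to 0.351 TPM, and the mean was 0.145 ± 0.0778 TPM.

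Set per length, Alas1 stood 154-fold above Alas2 in replicate 1 and 63.1-fold above it in replicate 2. In expected counts, with no correction for length, Alas1 had 160 times those of Alas2 in replicate 1 and 241 times in replicate 2, so which library shows the wider gap depends on the unit. On the log2(TPM + 0.1) scale the difference, Alas1 minus Alas2, averaged 5.81 ± 0.56 (SD, n = 2), and the ranges of the genes were far apart. With 1 group this difference was not tested. Alas2 was nonetheless detected: at 0.391 and 0.226 CPM it stood above the 0.107 and 0.0357 CPM that a count of 0 would allow in replicates 1 and 2. The exact 95% Poisson intervals of these CPM values were 0.195 to 0.699 and 0.136 to 0.353 CPM. They overlap, and like the limits for a count of 0 they cover counting error only.

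The Alas2 level in TPM was 2.22 times as high in replicate 2 as in replicate 1, while its CPM was 0.579 times as high. TPM divides by an effective length, which the deposited table gives as 1677 bases in replicate 1 and 481 bases in replicate 2. In replicate 1 all 11 counts were assigned to Alas2-202, a protein-coding model. In replicate 2, 13.3 of 19 counts were assigned to Alas2-204, a short non-coding model of 569 bases that starts at base 150566390, far inside the gene, and 5.75 to Alas2-202. The whole Alas2 gene of 23264 bases also lies within Apex2, a DNA repair gene on the opposite strand with 343 and 839 counts. Whether counting used the strand is not given in the sources used here, and the part of Apex2 RNA in these few counts was not tested.

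The Alas2-202 model holds, in its 5′ untranslated region, the letters of an iron-responsive element, the RNA hairpin through which iron regulatory proteins block translation. The 26 bases at chrX:150547459-150547484, plus strand, GRCm38, are shown with the loop letters in capitals, written as DNA, because they distinguish how Alas2 is controlled from how Alas1 is.
Alas2 iron-responsive element: tggttcgtcctCAGTGCagggcaaca
The genes of the iron regulatory proteins, Aco1 and Ireb2, stood at 6.06 ± 1.12 TPM and 7 ± 1.7 TPM.

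Of the cytosolic enzymes, Urod was the most abundant and Uros the least. Alad, on chromosome 4 from 62509169 to 62519918, encodes the enzyme that condenses aminolevulinate to porphobilinogen. It had 693 and 2455 expected counts and stood at 8.04 and 12.2 TPM in replicates 1 and 2, a mean of 10.1 ± 2.92 TPM. In replicate 2 its level was close to that of Alas1, and in replicate 1 well below it. Uros, on chromosome 7 from 133686243 to 133710072, encodes uroporphyrinogen III synthase, which closes the ring in the isomer used for heme. It had 566 and 1138 expected counts and stood at 4.95 and 4 TPM, a mean of 4.48 ± 0.672 TPM.

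Urod, on chromosome 4 from 116989965 to 116994413, encodes uroporphyrinogen decarboxylase, the last cytosolic step. It had 1480 and 3368 expected counts and stood at 18.3 and 15.4 TPM in replicates 1 and 2, a mean of 16.8 ± 2.01 TPM. It was the highest of the 9 genes in each library and lay above 76.8% of the 9116 coding genes.

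The mitochondrial enzymes that finish the ring stood in a descending order from Cpox to Ppox. Cpox, on chromosome 16 from 58670292 to 58717636, encodes coproporphyrinogen oxidase. It had 2609 and 8923 expected counts, the most reads of the 9 genes, and stood at 11.5 and 15.4 TPM in replicates 1 and 2, a mean of 13.4 ± 2.72 TPM. Its single model is 3186 bases long, and per length it stood below Urod. Fech, on chromosome 18 from 64452914 to 64490251, encodes ferrochelatase, which inserts iron. It had 1007 and 3232 expected counts and stood at 4.92 and 6.15 TPM, a mean of 5.54 ± 0.87 TPM.

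Ppox, on chromosome 1 from 171275990 to 171281186, encodes protoporphyrinogen oxidase, the step between Cpox and Fech. It had 413 and 1471 expected counts and stood at 3.63 and 4.06 TPM in replicates 1 and 2, a mean of 3.85 ± 0.304 TPM. Apart from Alas2 it had the lowest mean of the 9 genes, and it lay above 27.7% of the 9116 coding genes.

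**Figure D1:**
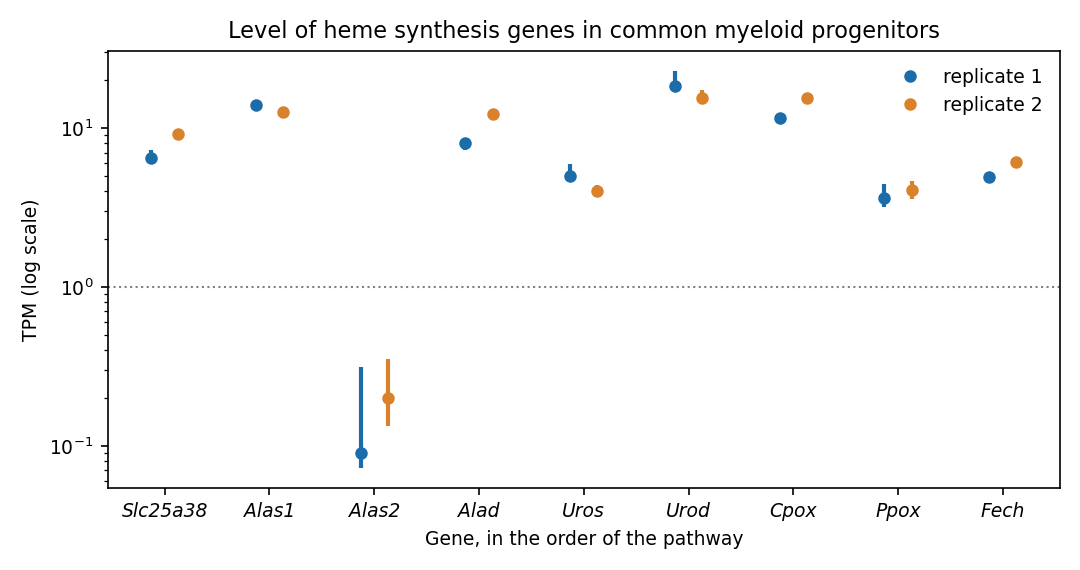
TPM on a log scale (y) of the 9 heme synthesis genes in the order of the pathway (x), with a point for each library and a line for the deposited interval of TPM in that library; the dotted line is 1 TPM. Alas2 lies at 0.09 and 0.2 TPM, below the line, and the other genes lie between 3.63 and 18.3 TPM.

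By mean TPM the order was Urod, Cpox, Alas1, Alad, Slc25a38, Fech, Uros, Ppox and Alas2. Of the 8 neighbouring pairs in this order, 5 kept the same order in both libraries. Cpox and Alas1, Fech and Uros, and Uros and Ppox changed places between the libraries, and the ranges of Alad and Slc25a38 overlapped. In replicate 2, Urod and Cpox stood 1.003-fold apart, so they cannot be ordered there. The step from Ppox to Alas2 was by far the widest, at 40.3-fold in replicate 1 and 20.3-fold in replicate 2. With 2 libraries of 1 group no likeness of pattern between genes was computed.

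Of the 9 genes, 8 reached 1 TPM in both libraries, all but Alas2. Among all nuclear protein-coding genes, 42.5% did. The median of the 9 genes was 6.51 TPM in replicate 1 and 9.13 TPM in replicate 2, and the coding genes at 1 TPM or more had a median mean level of 7.29 TPM. On TPM rescaled to coding genes alone, Urod averaged 81.2 ± 13.6, Alas1 63.9 ± 7.45, Ppox 18.5 ± 0.564 and Alas2 0.689 ± 0.34.

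By scaled CPM no gene of the set differed 2-fold between the libraries. Log2 CPM ratios of replicate 2 over replicate 1, scaled with TMM, were taken for the 8 genes that averaged 50 or more expected counts. They ran from -0.57 for Uros to 0.26 for Ppox, with a median of -0.02. The median size of the ratio was 0.23 for these genes and 0.25 for all 12704 genes at that count. At 2-fold or more, 0 of 8 members and 10.4% of the 12704 genes were found. The 8 members averaged 852 to 5766 counts, so they are not matched for count with the 12704 genes. Alas2, below the count limit, had a ratio of -0.81.

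The expected counts of all 9 genes were whole numbers in both libraries, with a deposited standard deviation of 0, so the deposited estimate divided none of their reads with another gene. The deposited TPM intervals of the libraries did not overlap for 7 of the 8 members tested, against 64.8% of the 12704 genes. This difference was not tested, and the 2 sets are again not matched for count. Ppox was the exception, at 3.17 to 4.45 TPM in replicate 1 and 3.57 to 4.67 TPM in replicate 2. These intervals cover the estimate within a library, and their level is not given in the sources used here.

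For Slc25a38 the direction of the difference between libraries depended on the unit. It was 1.4 times as high in replicate 2 by TPM and 0.907 times as high by CPM. Its deposited effective length was 1297 bases in replicate 1 and 980 bases in replicate 2. A TPM ratio and a scaled CPM ratio of opposite sign occurred for 1 of the 8 members and for 24.4% of the 12704 genes. For Alad both ratios were above 1, at 1.51 by TPM and 1.19 by CPM, and for Uros both were below 1, at 0.808 and 0.674.

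**Figure D2:**
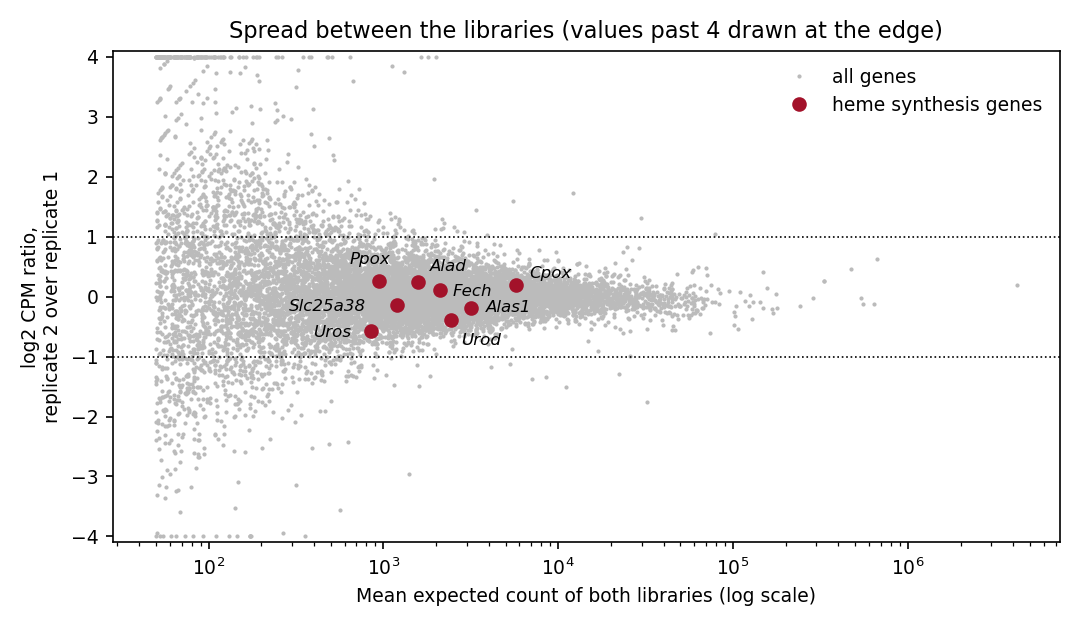
Log2 CPM ratio of replicate 2 over replicate 1 with TMM scaling (y) against the mean expected count on a log scale (x) for all 12704 genes with a mean count of at least 50 (grey) and the 8 heme synthesis genes among them (red); dotted lines mark 2-fold. The red points lie between -0.57 and 0.26, inside the dotted lines.

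Transcript models show from which start and in what form the RNA was assigned. The deposited transcript tables hold 51 models of the 9 genes; Cpox and Fech have a single model each, so no split can be seen for them. Models were classed by the annotation as protein-coding, retained intron, nonsense-mediated decay or other non-coding. Over the 8 genes with at least 100 counts in each library, the median share of TPM in protein-coding models was 79.0% in replicate 1 and 82.4% in replicate 2. Cpox and Fech enter at 100% by their single model, which raises these medians, so a difference between the libraries cannot be read from them. Among the other genes the share ran from 17.1% for Ppox to 87.5% for Uros in replicate 1. In replicate 2 it ran from 22.9% for Ppox to 94.4% for Alad.

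Nearly all Uros RNA was assigned to models of the upstream start, but the deposited models left little room for another outcome. RefSeq gives Uros starts at bases 133709295 and 133702500 of chromosome 7, 6795 bases apart, and each deposited model was placed with the nearer start. Models placed with the upstream start held 97.0% of Uros TPM in replicate 1 and 100% in replicate 2. Uros-209, which begins 116 bases before the downstream start, had 1.81 and 0 counts, under the 3 that a count of 0 allows. It is 371 bases long, and Uros-207, of 598 bases and also placed with the downstream start, had 0 counts. No deposited model runs from the downstream start to the end of the gene. Most reads of RNA begun there could thus be assigned only to upstream models, so the shares cannot tell how far each start was used. The downstream start is the one whose window above holds a GATA match. The table does not say which start is erythroid.

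Among upstream models, Uros-201, which starts 14 bases after the upstream RefSeq start, held the most TPM in both libraries, 40.1% and 30.0%. Its lead was not clear, as Uros-203 held 39.3% in replicate 1 and Uros-204 held 23.75% in replicate 2. The deposited intervals of these models overlapped that of Uros-201 in the same library. A group of 5 models that starts between bases 133709094 and 133708958 held 56.9% and 70.0% together. Bccip, on the opposite strand with 2119 and 6350 counts, starts at base 133709333, inside the printed upstream window. It overlaps Uros over 740 bases, into which Uros-208, with 0 counts, is the only Uros model to reach.

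The start sites of Alad could not be told apart. RefSeq places its starts at bases 62520063 and 62519909 of chromosome 4, 154 bases apart. All 3 deposited Alad models begin between bases 62519918 and 62519881, near the downstream start, so 100% of Alad TPM fell there by the annotation alone and 0% could be placed upstream. Alad-201, a protein-coding model, had 75.1% of it in replicate 1 and 93.9% in replicate 2. Alad-203, a non-coding model, held 24.9% and 5.59%.

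Ppox stood apart in the class of model to which its RNA was assigned. Protein-coding models made up 17.1% of its TPM in replicate 1 and 22.9% in replicate 2. Their mean share was 20.0% ± 4.12 (SD, n = 2), and retained intron models held 82.9% and 64.0%. No other member with at least 100 counts had a protein-coding share under 46.2% in either library. Ppox-201, its leading protein-coding model, had 76.2 and 293 of 413 and 1471 counts. By TPM the leading model differed between libraries, being Ppox-205 in replicate 1 and Ppox-207 in replicate 2, both with a retained intron. In replicate 2, Ppox-207 and Ppox-202 stood at 1.26 and 1.25 TPM with overlapping intervals, so neither clearly led. By expected counts, which do not weight short models up, Ppox-207 led in both libraries. Total RNA also holds unspliced RNA, and its part in the counts of retained intron models was not tested. Ppox-207, of 4411 bases, took 216 and 1035 counts. Ppox-207 alone of the Ppox models runs into the end of B4galt3 on the opposite strand, over 907 bases. B4galt3 had 272 and 933 counts, and its part in the Ppox counts was not tested.

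Alas1 RNA was divided among several models. Protein-coding models made up 46.2% of its TPM in replicate 1 and 62.5% in replicate 2, led in both by Alas1-201, which starts at base 106247856, between the RefSeq starts. Alas1-206, a non-coding model that starts inside the gene at base 106243634, held 29.95% and 36.4%. Alas1-204, with a retained intron, held 23.8% in replicate 1 and 0.475% in replicate 2.

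For Slc25a38 the libraries differed in the share of non-coding models. Its protein-coding share was 74.0% in replicate 1 and 52.1% in replicate 2, and other non-coding models held 15.8% and 45.7%. By expected counts, which do not weight short models up, the protein-coding share was 89.99% and 82.4% and the other non-coding share 4.16% and 16.5%. The level of its main protein-coding model, Slc25a38-201, was nearly the same, at 4.82 and 4.53 TPM. The non-coding model Slc25a38-207, of 492 bases, stood at 0.66 and 2.73 TPM. Urod was steadier, with protein-coding models at 82.8% and 84.8% of TPM.

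**Figure D3:**
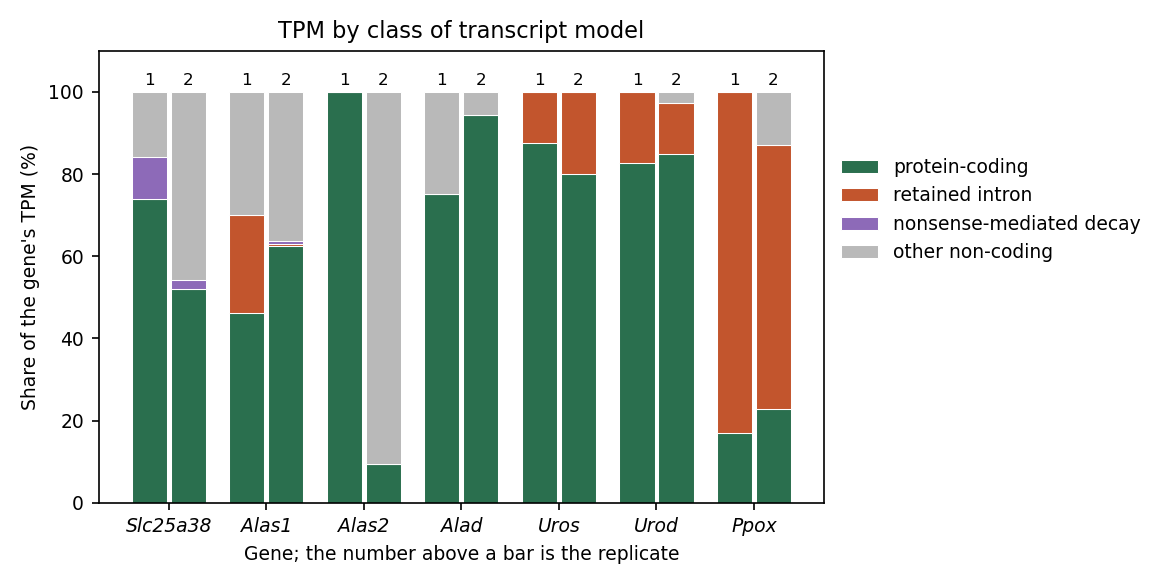
Share of each gene's TPM in percent (y) by class of transcript model for the 7 genes with more than 1 model (x), with a bar for each library. Ppox is mostly retained intron models at 82.9% and 64.0%, and Alas2 changes class between the libraries on 11 and 19 counts.

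Genes that feed, use or regulate the pathway were listed with earlier results of these data known. Of 47 such genes matched, 42 reached 1 TPM in both libraries. The share in all nuclear protein-coding genes was 42.5%, as above. In the list of glycine, succinyl-CoA and mitochondrial transport genes, 13 of 14 reached 1 TPM, and the median level was 10.7 ± 2.44 TPM. Sucla2 and Suclg2, subunits of succinyl-CoA synthetase, stood at 29.7 ± 5.76 TPM and 23.5 ± 0.75 TPM. Tmem14c, which carries protoporphyrinogen into the mitochondrial matrix, stood at 25.9 ± 1.56 TPM. Slc25a37, the mitochondrial iron importer of red cells, stood at 4.41 ± 0.552 TPM beside 5.08 ± 0.806 TPM for its broadly expressed relative Slc25a28. Lowest were Fam210b at 1.33 ± 0.127 TPM and the plasma membrane glycine transporter Slc6a9 at 0.28 ± 0.198 TPM, with 18 and 52 counts.

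Iron-sulfur cluster genes, whose products the pathway and its iron sensing draw on, had a median level of 9.7 ± 0.216 TPM. Of 10 matched, 9 reached 1 TPM in both libraries; Fdx2 was not analysed here. Glrx5, a carrier of new clusters, and Iscu, the assembly scaffold, stood at 18.4 ± 2.37 and 18.2 ± 1.13 TPM. Fdxr, ferredoxin reductase, stood at 5.42 ± 0.905 TPM. Fdx1, a ferredoxin, was lower in replicate 2, at 0.643 CPM against 3.16 CPM in replicate 1. It was the only gene of this list past 2-fold.

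Genes of heme export, binding and breakdown had a median level of 8.36 ± 0.573 TPM. In both libraries, 9 of 11 were at 1 TPM or more. Blvrb, a biliverdin reductase, Pgrmc1, a heme-binding membrane protein, and Abcg2, a porphyrin exporter, stood at 18.3 ± 1.9, 16.1 ± 1.37 and 15.9 ± 2.14 TPM. The heme oxygenases were unequal, with inducible Hmox1 at 0.48 and 0.8 TPM in replicates 1 and 2 and constitutive Hmox2 at 14.4 and 16.6 TPM. Flvcr1, a heme exporter, stood at 5.17 ± 1.07 TPM, and Flvcr2 had 0 and 55 counts.

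For regulators the median level was 10.9 ± 1.06 TPM, and all but Ppargc1a, 11 of 12, were at 1 TPM or more in both libraries. Nfe2, an erythroid and megakaryocyte factor, stood at 27.6 ± 3.27 TPM, Gabpa, an ETS factor, at 17.4 ± 0.905 TPM and Klf1, the erythroid Krüppel-like factor, at 16.2 ± 0.594 TPM. Gata1 stood at 9.73 and 11.4 TPM in replicates 1 and 2, so the RNA of the activator of Alas2 was present in the same RNA pools in which Alas2 had 11 and 19 counts. Nrf1, whose motif lies in the Alas1 window, stood at 13.2 ± 0.325 TPM. Clpx, which activates and helps turn over the synthase, and Bach1, a heme-sensing repressor, stood at 11.2 ± 0.933 and 6.8 ± 1.03 TPM. Ppargc1a, a coactivator of Alas1 in liver, had 12 and 98 counts, or 0.426 and 1.17 CPM, and was the only regulator past 2-fold.

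Markers of maturing red cells were present beside the low Alas2. Of 12, 10 reached 1 TPM in both libraries, against 42.5% of all nuclear protein-coding genes. The exceptions were Slc4a1, at 0.61 and 0.17 TPM, and Trim10, at 1.85 and 0.96 TPM. The 12 summed to 79.1 and 83.6 TPM in replicates 1 and 2. Hba-a2 and Ermap led at 19.6 ± 1.4 and 17.8 ± 3.29 TPM. Reads of a globin gene may come from its near-identical copy, so single globin levels are uncertain. Past 2-fold between libraries were Hbb-bs and Trim10, lower in replicate 2 with CPM ratios of 0.432 and 0.447, and Slc4a1, with 13 and 145 counts. That is 3 of the 12, against 10.4% of the 12704 genes. Of 7 macrophage markers, 1 reached 1 TPM in both libraries, Slc40a1 at 8.37 ± 1.85 TPM, and the list summed to 12.0 and 9.55 TPM. Adgre1 stood at 0.25 and 0.54 TPM and C1qb at 0.02 and 0.12 TPM. Vcam1 stood at 0.39 and 0.65 TPM, while Cd163 and Spic, with 0.22 and 0.62 TPM and 0.87 and 0.24 TPM, moved past 2-fold in opposite directions. The part of red cell or macrophage RNA in the heme gene levels was not tested.

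**Figure D4:**
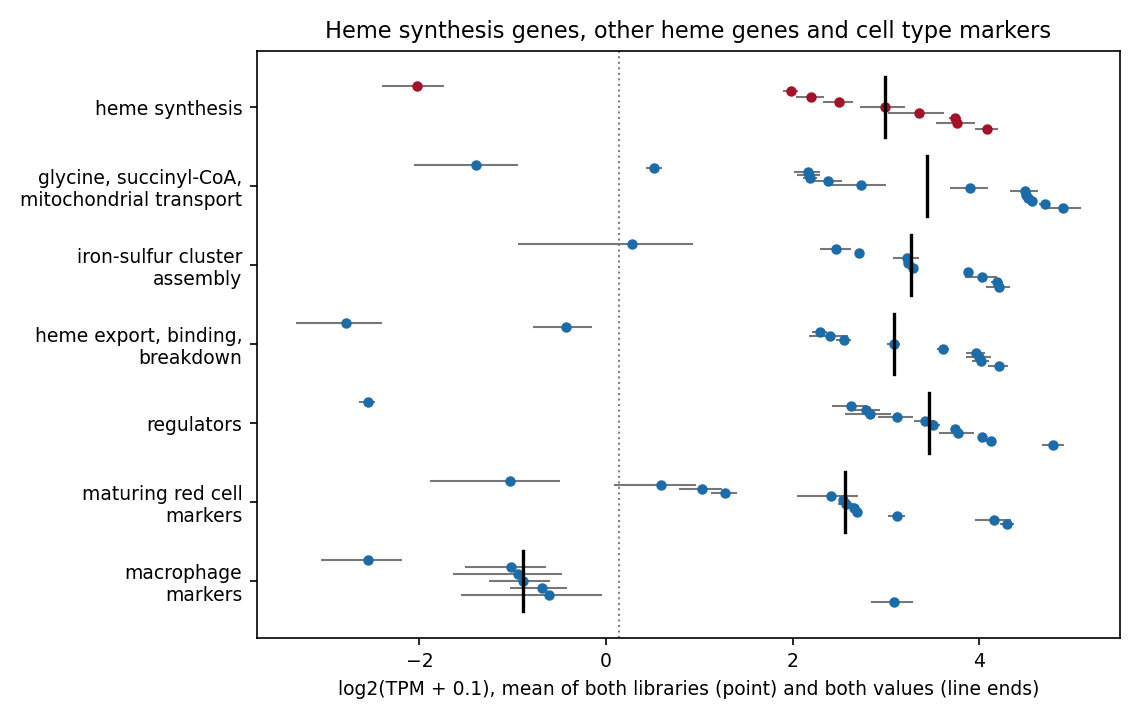
Mean level of each gene as log2(TPM + 0.1) (x; points, with lines between the values of both libraries) for the heme synthesis genes (red), the other heme lists and cell type markers (blue) in rows (y); black bars are medians of the points and the dotted line is 1 TPM. Alas2, Slc6a9, Hmox1, Flvcr2, Ppargc1a and Slc4a1 lie left of the dotted line, as do 6 of the 7 macrophage markers.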

How the data were processed

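Total RNA was made into libraries with a ScriptSeq kit from 100 ng of rRNA-depleted RNA, per the labels. For each library the authors deposited gene-level and transcript-level tables, which their readme places on mm10 and GENCODE M4; aligner and quantifier are not given in the sources used here. Per the file headers, the deposited tables hold expected counts, TPM, posterior mean TPM, FPKM, a percent per transcript (not used) and interval bounds of TPM, a signal per entry. Symbols, model classes and positions were read from GENCODE M21, whose GRCm38 assembly is that of mm10. Entries that are no Ensembl gene, with 0 and 83 counts, were left out.

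Expected counts were rounded and scaled with TMM in edgeR 4.0.16 or size factors of DESeq2 1.42.0 (R 4.3.3). Log2 ratios used a prior count of 0.5, and the ratio step was tested on simulated data. All else was done with numpy 2.4.6, matplotlib 3.10.9, pandas 2.3.3 and, for Poisson intervals, scipy 1.17.1 (Python 3.11.15). With 1 group no comparison was tested. All 9 members were named, with the 3 highest and 2 lowest genes of other lists and genes past 2-fold between libraries; further list genes (Slc25a37, Slc25a28, Hmox2, Flvcr1, Gata1, Nrf1, Clpx, Bach1 and Ireb2) were picked for their roles after values were seen. A few genes that this rule would name are not reported here. Members and lists were chosen with earlier results of these data known. The assignment of models to the nearer RefSeq start was set after the annotation was seen.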

Additional observations from a re-analysis of the deposited data

How the results depend on the processing

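Alternatives were posterior mean TPM, FPKM, TPM rescaled to coding genes, other thresholds, pseudocounts and scalings, and leaving out a library. The median of 7.82 TPM became 19.4 in FPKM and 37.4 in rescaled TPM, which are other units. The log2 ratio of Alas1 over Alas2, 5.81, was 3.64 with a pseudocount of 1 and 6.41 with rescaled TPM, and kept its sign under all alternatives run. The share of Uros TPM in upstream models, 98.5%, was 95.97% with posterior mean TPM. The median share of protein-coding models, 80.7%, was 77.55% with posterior mean TPM and 86.8% with expected counts. This median counts Cpox and Fech at 100% by their single model. The counts of 8 heme synthesis genes and 42 other heme genes at 1 TPM were within 1.5 times under every alternative, at 8 and at 42 to 44. The count of 0 genes past 2-fold between libraries was 0 under each alternative, and the median log2 ratio of -0.02 ranged from -0.14 without a count filter to 0.24 with TPM. Without replicate 1 or replicate 2 the values ranged from 6.51 to 9.13 TPM for the median, 5.41 to 6.20 for the Alas1 ratio, 96.98% to 100% for Uros, 79.0% to 82.4% for protein-coding models, and 42 to 43 other heme genes; 8 heme synthesis genes and 0% for Alad upstream did not change. No paired analysis was possible because there is 1 group. Alas2 rests on 11 and 19 counts, so its level and its split among models are imprecise.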

Other observations

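Slc4a1, the anion exchanger of red cells, also had TPM and CPM that differed in direction between the libraries, in the opposite sense to Alas2. It stood at 0.61 TPM in replicate 1 and 0.17 TPM in replicate 2, while its CPM was 0.462 in replicate 1 and 1.73 in replicate 2. Both genes had few counts in replicate 1, 13 for Slc4a1 and 11 for Alas2. Such a difference was not confined to few counts, as it occurred for 24.4% of the 12704 genes averaging 50 or more. Slc40a1, with 857 and 3417 counts, also had it, at 9.67 and 7.06 TPM but 30.4 and 40.7 CPM.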
